A study of Mus musculus with 7 samples.

Results

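Metallothioneins and zinc transporters were followed as RNA bound to ribosomes of cholinergic cells in the mouse ventral striatum. The group held 10 genes taken by symbol, the metallothioneins Mt1, Mt2 and Mt3, the zinc sensor Mtf1, the exporters Slc30a1, Slc30a3, Slc30a4 and Slc30a9, and the importers Slc39a6 and Slc39a10. It was assembled because Mt3 was lower in KO than in WT, that is, its members were selected on the FPKM of Mt3, and so the KO and WT levels of the members are given as descriptions without a test. Of the 10 genes, 9 had a row among the 22016 rows of the expression table, and Slc30a4 was not analysed here. Of these 9, 8 reached the mean of 1 FPKM that was required for the fit across all rows, and Slc30a3 did not.

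Translating ribosome affinity purification (TRAP) pulls down tagged ribosomes with the RNA they carry. All mice were ChAT TRAP and p11 fl/fl on a C57/Bl6N background, aged 8 to 12 weeks, so that both groups carried the ribosome tag in cells with an active Chat promoter and 2 floxed alleles of S100a10, the gene of p11. WT were littermates without Cre (3 libraries) and KO also carried ChAT Cre (4 libraries), which deletes S100a10 in cells that use the Chat promoter. Each library was made from 6 ventral striata pooled from 3 mice. The design addressed which ribosome-bound RNAs of cholinergic cells differ with that deletion. Only KO carried Cre, so what Cre does by itself and what the deletion does cannot be told apart.

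Metallothioneins are small cysteine-rich proteins that bind zinc and copper and release them again. Mt1 and Mt2 are made in most tissues and are induced by metals and glucocorticoids through Mtf1 and other factors, while Mt3 is made mainly in the brain and responds little to metals. Zinc leaves the cytosol through Slc30 (ZnT) transporters and enters it through Slc39 (ZIP) transporters, and in the forebrain Slc30a3 fills synaptic vesicles of glutamatergic terminals with zinc.

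S100a10 measured 329.5, 332.7 and 387.5 FPKM across the WT libraries and 127.1, 138.8, 189.8 and 89.2 FPKM across the KO libraries. Values per library are given throughout in the order WT1 to WT3 and KO1 to KO4. FPKM are reads scaled to transcript length and library size, so levels can be set side by side between genes, but only roughly. Effects of GC content and transcript length beyond this scaling were not removed from the levels given. The sequencing depth behind them was unknown. Values summed to 379417 to 511328 FPKM per library, and the 9 cholinergic markers to 1242.1 to 1378.0 FPKM in WT and 934.8 to 1161.5 in KO, none of them at 0 in any library. Slc18a3 held the largest part of the marker sums, with means of 543.1 FPKM in WT and 321.6 in KO. The markers did not move together, since 6 of the 9 had a negative log2 fold change (KO minus WT) and 3 a positive one. Lhx8, for example, averaged 174.0 FPKM in WT and 208.4 in KO. KO1 stood apart from the other libraries in markers of other cells. All 6 medium spiny neuron markers in the table had their highest value there, with a sum of 273.3 FPKM against 69.2 to 111.0 in the other libraries. Library numbers in the deposited header were 83 to 113 for WT and 210 to 222 for KO, so an order of handling that these numbers may follow cannot be told apart from genotype. Y-linked RNA was found in WT1, KO1, KO3 and KO4 and was listed at 0 in WT2, WT3 and KO2.

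The 3 metallothioneins lie in 1 cluster on chromosome 8 (94137197 to 94180327, mm10, GENCODE M21), in the order Mt4, Mt3, Mt2 and Mt1, all on the plus strand. Mt3 spans 94152607 to 94154146, Mt2 94172664 to 94173568 and Mt1 94179082 to 94180327. Each has 3 exons in its principal transcript, of 536, 511 and 549 bases for Mt3, Mt2 and Mt1. No 31-base stretch of Mt1 or Mt3 occurred in a transcript of another gene, and 0.5% of those of Mt2 did. Mt1 and Mt3 overlapped no other annotated gene, whereas Mt2 overlaps the antisense gene Gm45774. The handling of strand was not given in the sources used here, so reads of that pair cannot be told apart. The same holds for Mtf1 (chromosome 4, 124802104 to 124849800) with 1110065P20Rik, for Slc30a1 (chromosome 1, 191906767 to 191913247) with the antisense 1700034H15Rik, and for Slc30a3 (chromosome 5, 31086106 to 31108237) with Dnajc5g. Slc30a9 lies on chromosome 5 (67306955 to 67358443) and Slc39a10 on chromosome 1 (46807544 to 46892852), where it overlaps Gm28151 and Gm37393 on its own strand and shares 1.6% of its 31-base stretches with other genes.

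The windows in front of these genes are shown because Mtf1 acts through short metal response elements, and because Mt1 and Mt2 shared their highest library while Mt3 differed from them. The RefSeq sequences (GRCm38.p6) cover 250 bases before and 50 bases after the annotated transcript start. Capitals mark matches to the element's core, TGCACNC or TGCGCNC, on either strand. The Mt1 window is chr8:94178839-94179138, that of Mt2 chr8:94172368-94172667 and that of Mt3 chr8:94152357-94152656, all on the plus strand.
Mt1: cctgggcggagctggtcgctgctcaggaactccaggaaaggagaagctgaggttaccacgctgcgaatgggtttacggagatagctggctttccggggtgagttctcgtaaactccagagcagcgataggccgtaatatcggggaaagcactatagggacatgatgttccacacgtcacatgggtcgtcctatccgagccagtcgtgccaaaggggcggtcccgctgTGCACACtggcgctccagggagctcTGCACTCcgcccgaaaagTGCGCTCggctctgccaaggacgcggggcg
Mt2: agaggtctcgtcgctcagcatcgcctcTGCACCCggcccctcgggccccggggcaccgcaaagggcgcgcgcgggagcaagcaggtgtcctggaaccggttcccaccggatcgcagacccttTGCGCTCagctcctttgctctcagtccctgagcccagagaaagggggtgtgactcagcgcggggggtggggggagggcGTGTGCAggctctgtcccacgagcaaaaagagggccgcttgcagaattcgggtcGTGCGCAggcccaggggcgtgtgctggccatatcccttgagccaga
Mt3: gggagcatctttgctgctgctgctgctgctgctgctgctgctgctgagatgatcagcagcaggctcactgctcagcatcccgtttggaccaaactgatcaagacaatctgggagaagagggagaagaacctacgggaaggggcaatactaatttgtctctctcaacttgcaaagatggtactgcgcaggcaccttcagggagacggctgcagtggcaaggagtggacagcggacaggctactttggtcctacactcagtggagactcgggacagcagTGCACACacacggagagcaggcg
Mt1 had 3 matches in its window, all on the gene's strand. In Mt2 there were 4, with 2 on each strand. Mt3 had 1. Of all 32851 promoter windows of this length, 25.7% held at least 1 match, 2.0% at least 3 and 0.5% at least 4. Annotated starts of the metallothioneins lie upstream of a TATA sequence, since TATAAA first occurs at base 129 of the Mt1, base 90 of the Mt2 and base 107 of the Mt3 transcript. From the annotated start up to that TATAAA, the transcripts of Mt1, Mt2 and Mt3 held 4, 3 and 3 matches, some of which are also in the windows above. None of those of Mt2 are, since its window ends at 94172667 and its GENCODE gene starts at 94172664. No share over all genes is given for these counts. The windows alone therefore do not show all matches near the TATA sequence.

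**Figure D1:**
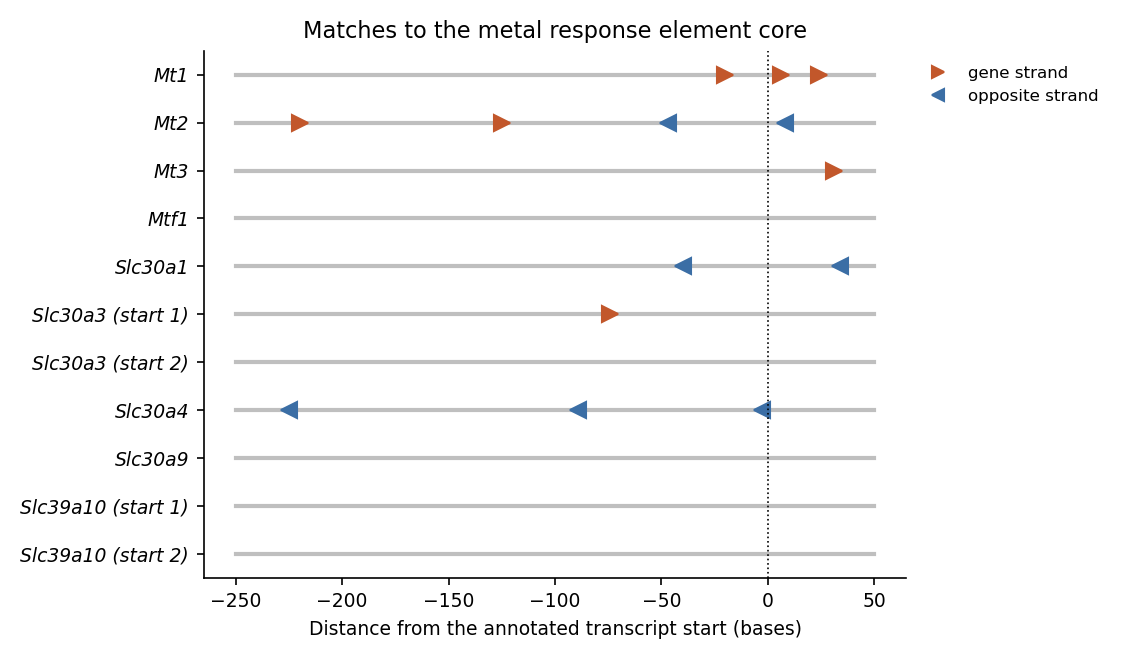
Matches to the metal response element core in the RefSeq promoter windows of the genes, plotted by distance in bases from the annotated transcript start. Arrowheads point right for the gene's strand and left for the opposite strand. Mt2 has 4 matches and Mt1 has 3, and Mtf1, Slc30a9 and both starts of Slc39a10 have 0.

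Among the other members, Slc30a1, an established Mtf1 target, had 2 matches, both on the opposite strand. Slc30a4 had 3, and 1 of the 2 annotated starts of Slc30a3 had 1. Mtf1, Slc30a9 and both starts of Slc39a10 had 0. A match is a run of letters and not a measured binding site.

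Mt3, also known as growth inhibitory factor, measured 12.7, 13.8 and 10.5 FPKM across the WT libraries. Across the KO libraries it measured 3.3, 4.9, 2.3 and 3.5 FPKM. Every KO library lay below every WT library, and the highest KO value, in KO2, was less than the lowest WT value, in WT3. WT averaged 12.3 ± 1.68 FPKM (SD, n = 3) and KO 3.5 ± 1.07 (SD, n = 4), which put KO at 28.4% of WT. Taken as KO minus WT of log2(FPKM + 1), the log2 fold change was -1.59 (95% confidence interval -2.05 to -1.13, SE 0.21). In bulk samples, fewer cells with a transcript and less of it per cell cannot be told apart. Pools differed in sex by their Y-linked RNA. Among pools with such RNA Mt3 was 12.7 FPKM in WT1 against 3.3, 2.3 and 3.5 in KO1, KO3 and KO4, and among pools without it 13.8 and 10.5 FPKM in WT2 and WT3 against 4.9 in KO2. Since the groups do not overlap, the direction in each set is fixed, and sets with 1 WT or 1 KO library allow no test. Leaving out each library in turn moved the log2 fold change between -1.73 and -1.45, and removing the trends in GC content and transcript length gave -1.43.

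Mt1, the most abundant of the metallothioneins here, did not share this pattern. It measured 39.9, 40.7 and 40.6 FPKM across the WT libraries, a narrow range. Across the KO libraries it measured 97.3, 34.4, 47.3 and 59.2 FPKM, so that the groups overlapped through KO2, the lowest of all libraries. WT averaged 40.4 ± 0.436 FPKM (SD, n = 3) and KO 59.5 ± 27.1 (SD, n = 4), and the log2 fold change came to 0.45 (95% confidence interval -0.14 to 1.03, SE 0.27). Without KO1 the KO mean was 47 ± 12.4 FPKM (SD, n = 3) and the log2 fold change 0.18 (SE 0.18).

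Mt2, the other metal-induced form, had its highest libraries in common with Mt1. Its levels were 14.5, 11.9 and 11.1 FPKM across the WT libraries and 29.0, 14.7, 13.3 and 16.8 FPKM across the KO libraries. KO1 was again the highest library and KO4 the next, and the groups overlapped. WT averaged 12.5 ± 1.78 FPKM (SD, n = 3) and KO 18.4 ± 7.18 (SD, n = 4), and the log2 fold change came to 0.47 (95% confidence interval -0.04 to 0.98, SE 0.23). Without KO1 the KO mean was 14.9 ± 1.76 FPKM (SD, n = 3) and the log2 fold change 0.24 (SE 0.16). Within pools that held Y-linked RNA, Mt1 was lower in WT1 than in KO1, KO3 and KO4, while among pools without it KO2 lay below both WT2 and WT3. For Mt2, WT1 lay above KO3 and below KO1 and KO4 among pools with such RNA, and KO2 lay above both WT2 and WT3 among those without.

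**Figure D2:**
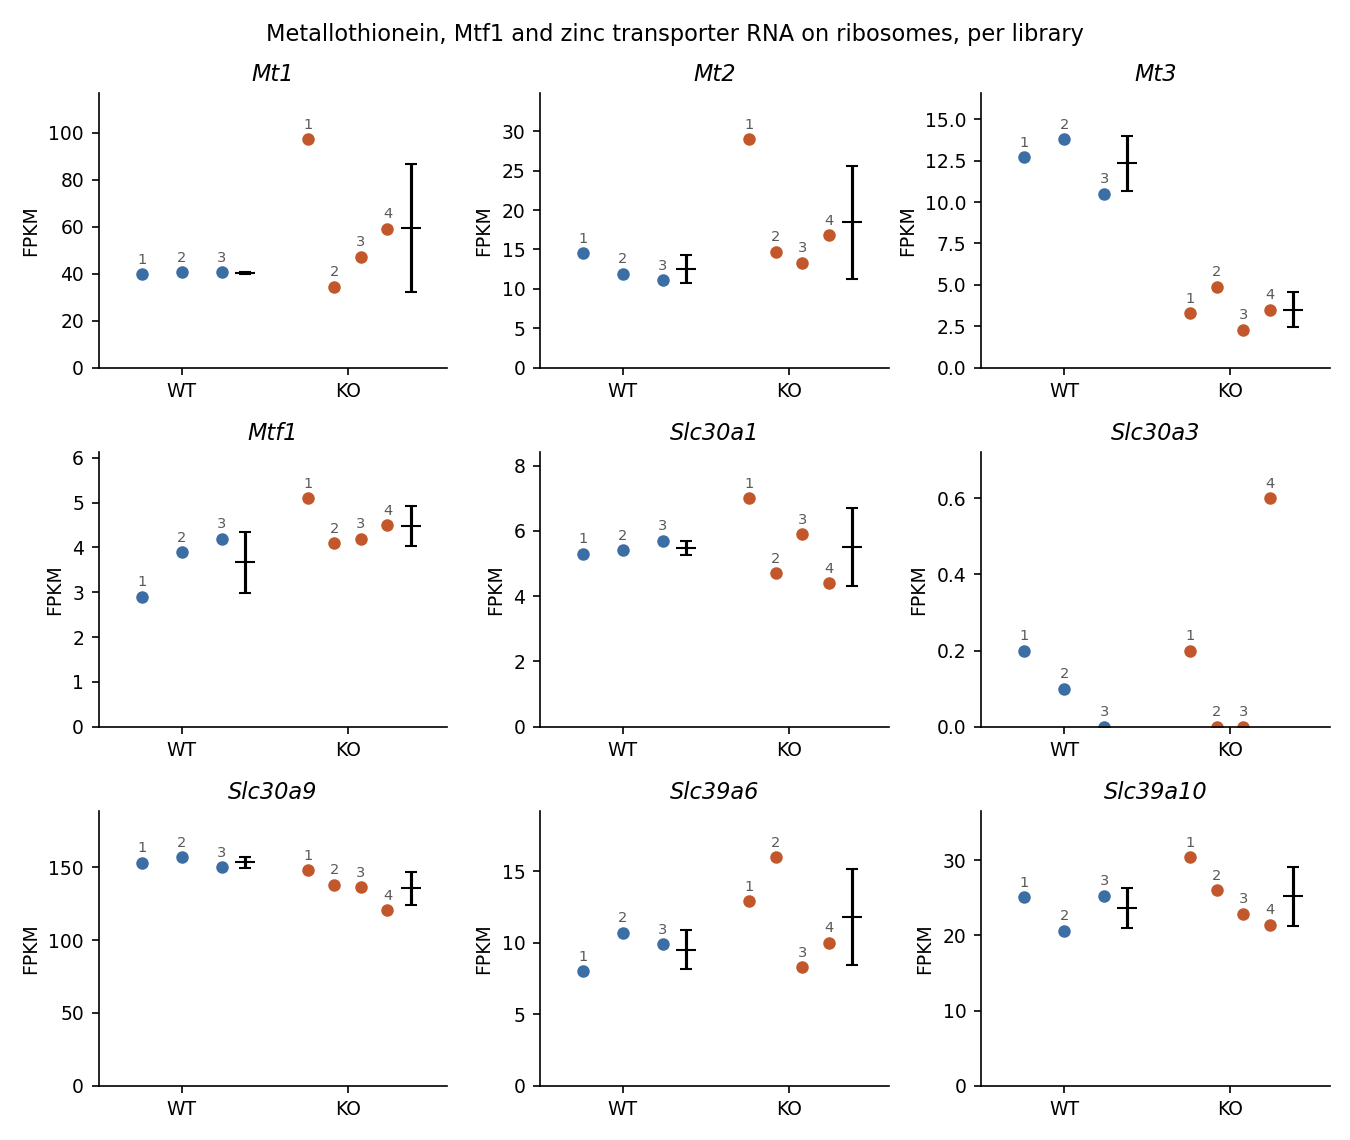
FPKM of the 9 genes in each library, with WT in blue and KO in orange, the replicate number above each point, and the mean with its SD in black (not drawn for Slc30a3, which was listed at 0 in 3 libraries). Mt3 lies between 10.5 and 13.8 FPKM in WT and between 2.3 and 4.9 in KO, while KO1 is the highest library for Mt1 and Mt2.

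The make-up of the metallothionein pool follows from these levels and is likewise a description. Mt3 made up 18.9%, 20.8% and 16.9% of the summed FPKM of Mt1, Mt2 and Mt3 in WT1 to WT3. Its share was 2.55%, 9.07%, 3.66% and 4.4% in KO1 to KO4, below each WT library. The ratio of Mt1 to Mt3 was 3.32 ± 0.486 over WT (SD, n = 3) and 18.5 ± 9.31 over KO (SD, n = 4), and it ranged from 7.02 in KO2 to 29.5 in KO1. By contrast, the ratio of Mt1 to Mt2 was 3.28 ± 0.472 in WT and 3.19 ± 0.577 in KO. The summed level of the 3 genes was 65.2 ± 2.65 FPKM in WT and 81.5 ± 33.8 in KO, with 129.6 FPKM in KO1. Mt4, the metallothionein of stratified epithelia, was listed at 0.0 FPKM in 6 libraries and at 0.1 in KO4.

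**Figure D3:**
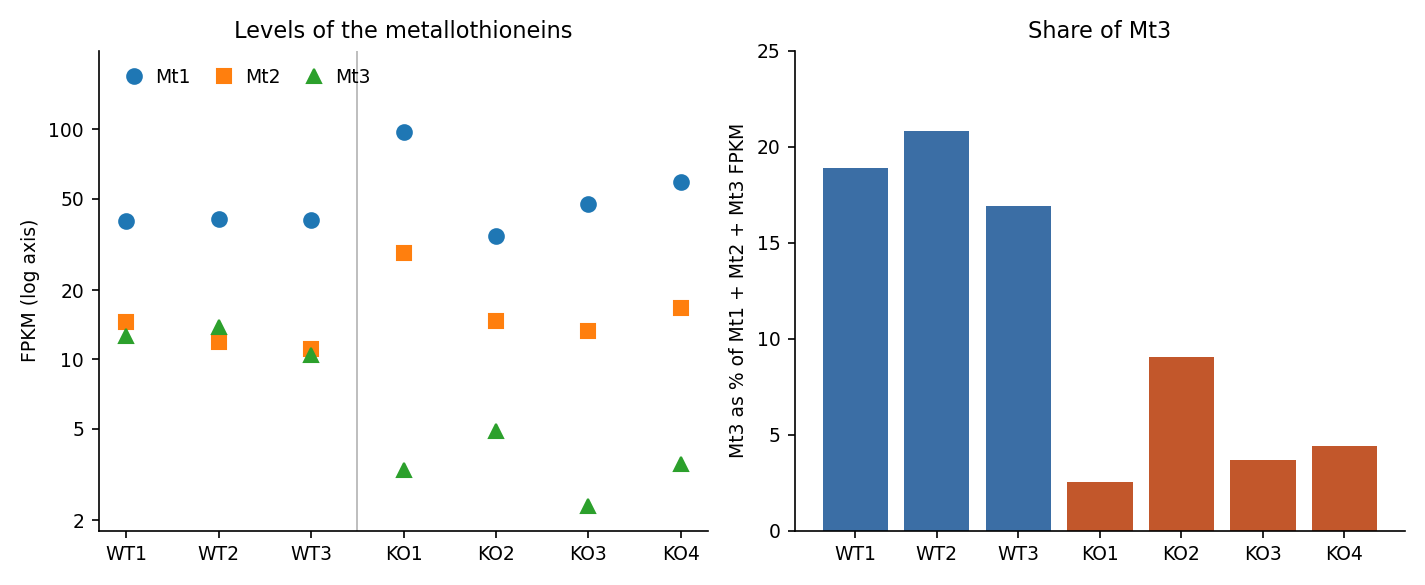
Left, FPKM of Mt1, Mt2 and Mt3 in each library on a log axis, with a line between WT and KO. Right, Mt3 as a percentage of the summed FPKM of the 3 genes, which is 16.9% to 20.8% in WT and 2.55% to 9.07% in KO.

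Metallothioneins are abundant in astrocytes, so the 12 astrocyte markers were read beside them. Their summed level was 54.6 to 59.3 FPKM in WT and 51.9 to 84.9 in KO, with 84.9 FPKM in KO1 and 66.8 in KO4, and 9 of the 12 were highest in KO1. Slc1a2, the astrocyte glutamate transporter, stood at 34.1 FPKM in KO1 against 15.5 to 21.8 in the other libraries. Aqp4, Gfap and Gjb6 ran from 0.0 to 0.3 FPKM in WT and reached 1.2, 0.8 and 1.8 FPKM in KO1. Aldh1l1 and Fgfr3 went the other way, with 1.2 and 0.6 FPKM in WT1, their highest library, and 0.6 and 0.5 in KO1. Aldoc was highest in KO4, at 39.8 FPKM against 34.8 in KO1. The KO1 library thus held the highest level of Mt1, of Mt2 and of most of the 12 markers. The part of the markers' cells in the levels of Mt1 and Mt2 was not tested. Mt3 was 3.3 FPKM in KO1, and its log2 fold change without KO1 was -1.58. Most of the summed level came from Aldoc and Slc1a2, which neurons also carry. The 6 microglial markers summed to 0.3 to 1.9 FPKM, and no other marker list had a sum that set all KO libraries apart from all WT libraries except the cholinergic and ependymal lists. Ependymal markers summed to at least 4.1 FPKM in each WT library and to 2.2 to 2.6 FPKM in KO. Most of that was Rsph1 (9.5, 4.5 and 3.1 FPKM in WT, 1.6, 2.2, 1.7 and 1.5 in KO), while Foxj1, Ccdc153 and Tmem212 ran from 0.0 to 1.0 FPKM. The part of these cells in the Mt3 level was not tested.

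**Figure D4:**
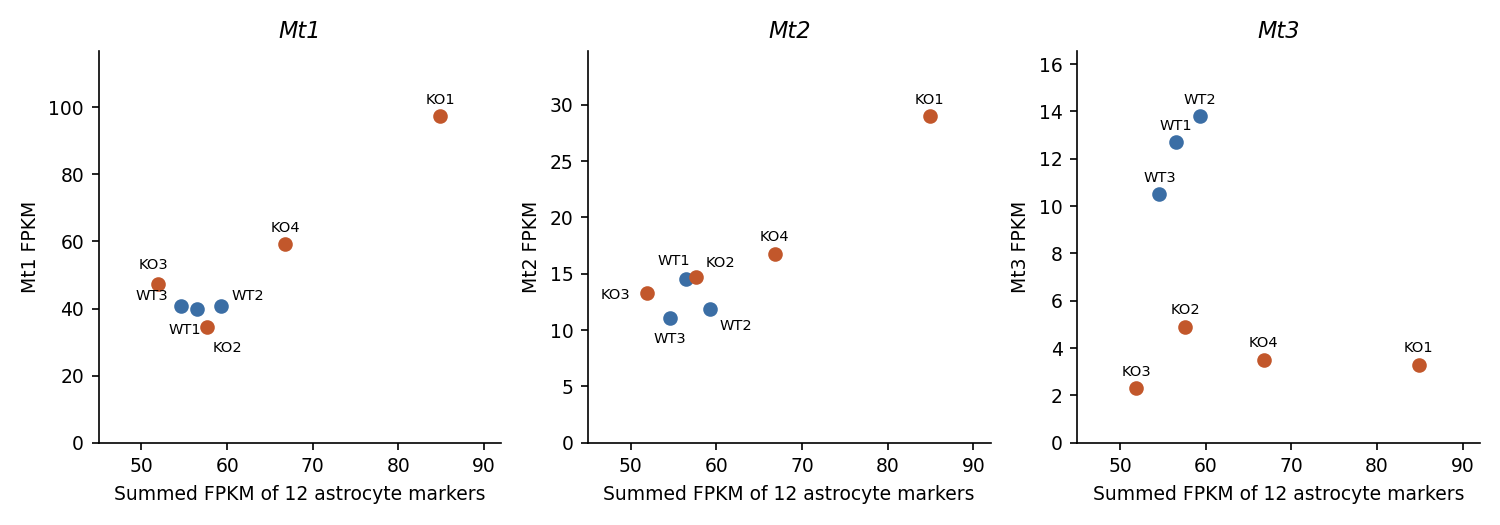
FPKM of Mt1, Mt2 and Mt3 in the 7 libraries against the summed FPKM of 12 astrocyte markers in the same library, with WT in blue and KO in orange. KO1, at 84.9 FPKM of astrocyte markers, is the highest library for Mt1 and Mt2, whereas Mt3 is low in all 4 KO libraries along the range of the markers.

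Mtf1, the zinc-sensing transcription factor that induces Mt1, Mt2 and Slc30a1, was expressed at a low level. It measured 2.9, 3.9 and 4.2 FPKM across the WT libraries and 5.1, 4.1, 4.2 and 4.5 FPKM across the KO libraries. The groups overlapped, and the log2 fold change was 0.24 (95% confidence interval -0.16 to 0.63, SE 0.18).

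Slc30a9, which carries zinc out of mitochondria in mammalian cells and was first described as a nuclear coactivator, was the most abundant member. It ranked 520 among the 22016 rows by its WT mean. Its levels were 153.1, 156.9 and 149.9 FPKM across the WT libraries and 147.9, 138.1, 136.4 and 120.5 FPKM across the KO libraries. The highest KO library, KO1, lay just below the lowest WT library, so the groups did not overlap, but KO reached 88.5% of WT and the log2 fold change was -0.18 (95% confidence interval -0.49 to 0.13, SE 0.14). Other genes shared 0.7% of its 31-base stretches.

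Slc30a1, the zinc exporter of the plasma membrane, was the member with the smallest log2 fold change, -0.01 (95% confidence interval -0.41 to 0.39, SE 0.18). It measured 5.3, 5.4 and 5.7 FPKM across the WT libraries and 7.0, 4.7, 5.9 and 4.4 FPKM across the KO libraries. KO values lay on both sides of the WT range, with KO1 the highest. Slc30a3, the zinc transporter of synaptic vesicles, was listed at 0.2, 0.1 and 0.0 FPKM across the WT libraries and 0.2, 0.0, 0.0 and 0.6 FPKM across the KO libraries. These values are within a few rounding steps of 0.1 FPKM, and no fold change is given for them.

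The ZIP importers Slc39a6 and Slc39a10, which form a heteromer that brings zinc across the plasma membrane, were present in all libraries. Slc39a10 was the more abundant, with 25.1, 20.6 and 25.3 FPKM across the WT libraries and 30.4, 26.0, 22.9 and 21.4 FPKM across the KO libraries. Its groups overlapped (log2 fold change 0.08, 95% confidence interval -0.27 to 0.43, SE 0.16). Slc39a6 measured 8.0, 10.7 and 9.9 FPKM across the WT libraries and 12.9, 16.0, 8.3 and 10 FPKM across the KO libraries. It overlaps Elp2 on the opposite strand. KO1 and KO2 lay above the WT range and the other KO libraries within it (0.25, 95% confidence interval -0.21 to 0.71, SE 0.21).

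In the fit across all 10089 tested rows, 1 of the 8 tested members, Mt3, was past the threshold of an adjusted p of 0.05 in the lower direction, where 0.773% of all rows were called lower in KO. No member was called higher, where the figure over all rows was 0.971%, and 1.74% of rows were called in either direction. The groups did not overlap, with KO lower, for 2 of the 8, Mt3 and Slc30a9, beside 8.29% of all rows (17.4% in either direction). The median log2 fold change of the 8 was 0.16 and that of all tested rows 0.03. Since the members were gathered around Mt3 for its lower KO values, its place past the threshold is no test of it. Nothing is read from these shares. The authors' deposited table of 113 genes held none of the members, Mt3 included, and none of the other listed genes, Ap3s1 included. The largest adjusted p in it, from the authors' own test, was 0.0499.

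**Figure D5:**
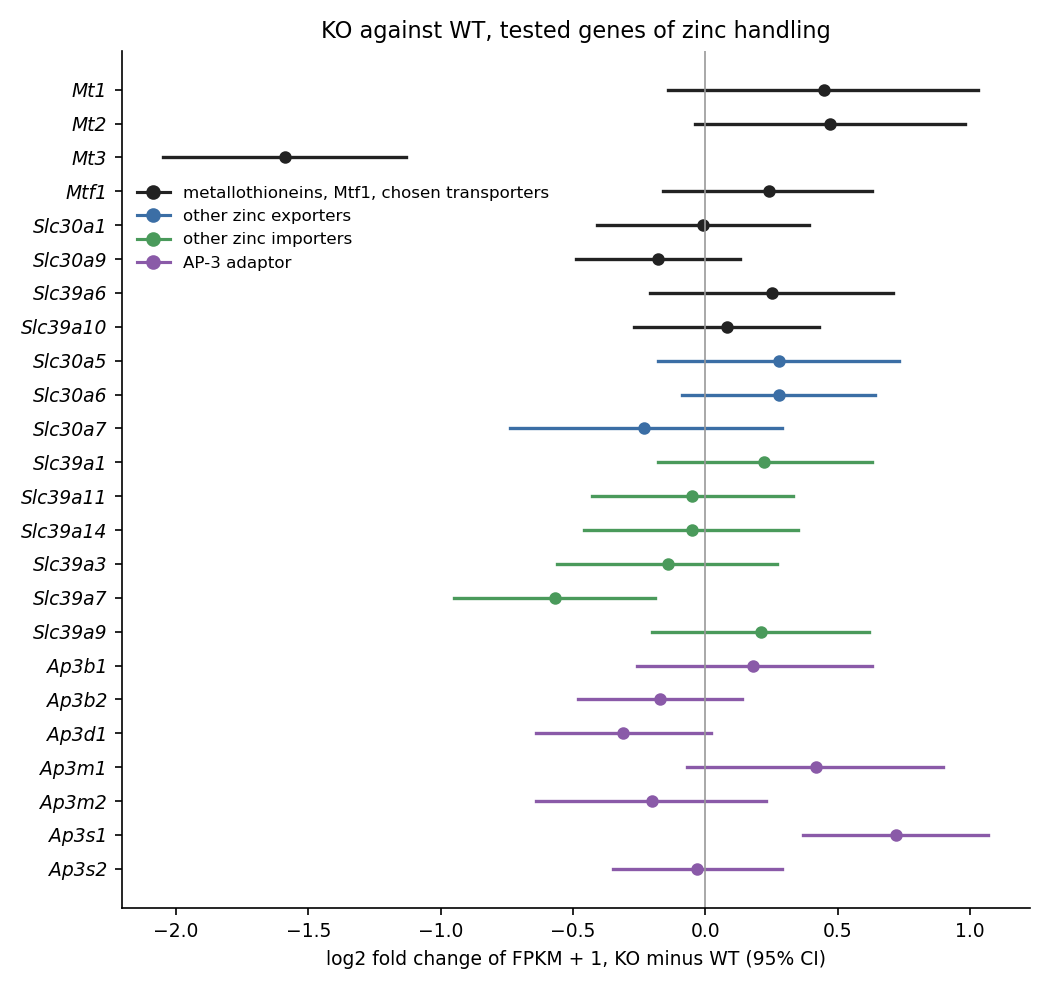
Log2 fold change of FPKM + 1, KO minus WT, with its 95% confidence interval for the tested members (black), other zinc exporters (blue), other zinc importers (green) and subunits of the AP-3 adaptor (purple). The interval of Mt3 runs from -2.05 to -1.13, and those of the other members include 0. The members were chosen on Mt3, so their intervals are descriptions and no test.

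The other zinc transporters, taken as whole families, gave 0 calls with limma among 9 tested genes, in either direction, and 1 had an unadjusted p under 0.05. Over all rows 1.74% were called in either direction and 18.8% had such a p. Exporters of the secretory pathway were low to moderate. Slc30a5, the most abundant of them, averaged 5.9 ± 0.52 FPKM over WT (SD, n = 3) and 7.55 ± 2.24 FPKM over KO (SD, n = 4), with a log2 fold change of 0.28 and a limma adjusted p of 0.5. Its partner Slc30a6 stood at 2.93 ± 0.115 and 3.77 ± 0.236 FPKM (0.28, limma adjusted p = 0.39), with KO above WT in every library. Groups that did not overlap, in either direction, were found for 17.4% of all rows. Slc30a7, a Golgi exporter, had a log2 fold change of -0.23 (limma adjusted p = 0.64).

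Slc39a7, the importer that releases zinc from the endoplasmic reticulum and Golgi into the cytosol, was the most abundant of the other importers and the gene with the unadjusted p under 0.05. It measured 18.4, 18.9 and 19.2 FPKM across the WT libraries and 13.8, 12.7, 14.6 and 9.1 FPKM across the KO libraries, without overlap, but did not pass over all rows (log2 fold change -0.57, SE 0.17, limma adjusted p = 0.12). A read-through gene, Gm20427, shares 76.8% of its 31-base stretches, so its reads may be divided between both. Slc39a1, an importer of the plasma membrane, had a log2 fold change of 0.22 (limma adjusted p = 0.55). Other genes share 27.7% of its 31-base stretches. Slc39a2, Slc39a4 and Slc39a5 were listed at 0.0 FPKM in every library. Slc39a8 and Slc39a13 were not analysed here.

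The AP-3 adaptor sorts Slc30a3 into synaptic vesicles, and 1 of its 7 subunit genes passed, beside 1.74% of all rows called in either direction. Ap3s1, a small subunit on chromosome 18 (46741876 to 46790826), measured 52.1, 61.1 and 61.6 FPKM across the WT libraries and 106.1, 102.8, 103.0 and 76.5 FPKM across the KO libraries. All KO libraries lay above the WT libraries, and KO4 was the lowest of them. Ap3s1 rose, with averages of 58.3 ± 5.35 FPKM over WT (SD, n = 3) and 97.1 ± 13.8 FPKM over KO (SD, n = 4). Its log2 fold change was 0.72 with an SE of 0.16 (adjusted p = 0.045 by limma). The call was lost under 11 of 19 alternatives, among them those without WT1 (0.64, limma adjusted p = 0.2), WT2 (0.75, 0.18), WT3 (0.76, 0.11), KO2 (0.69, 0.15) or KO3 (0.69, 0.095), and after correction for GC content and transcript length (0.39, 0.16). Pseudogenes share 21.5% of its 31-base stretches. The list median was -0.03, with 3 of the 7 positive and 4 negative.

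Other reported targets of Mtf1 gave 0 calls with limma among 4, beside 1.74% of all rows. An unadjusted p under 0.05 was found for 2 of them, beside 18.8% of all rows. Csrp1, a LIM domain protein, measured 2.3, 3.7 and 5.1 FPKM across the WT libraries and 13, 6.4, 5.7 and 6.7 FPKM across the KO libraries (a change of 0.91 on the log2 scale, SE 0.28, limma adjusted p = 0.12). KO1 was the highest library here as well. The other gene with such a p was Ndrg1, averaging 2.83 ± 0.306 FPKM over WT and 1.78 ± 0.613 over KO (-0.49, limma adjusted p = 0.26).

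Genes of copper handling (7 tested), iron handling (9), glutathione and antioxidant defence (18) and the glucocorticoid response (5) gave 0 calls with limma. The share called over all rows, in either direction, was 1.74%, so little can be read from 0 calls in lists of this size. Of them 0, 0, 2 and 2 had an unadjusted p under 0.05, beside 18.8% of all rows. Their median log2 fold changes were -0.15, 0.14, 0.17 and -0.01, beside 0.03 over all rows. Commd1, a regulator of copper export, had a log2 fold change of -0.43 (limma adjusted p = 0.27), and Slc25a37, which brings iron into mitochondria, one of 0.27 (0.47). Prdx1, a peroxide-reducing enzyme, averaged 129.2 ± 8.42 FPKM over WT and 174.6 ± 26.6 over KO (0.42, limma adjusted p = 0.19). Per1, a clock gene that glucocorticoids induce as they do Mt1 and Mt2, stood at 7.47 ± 0.862 and 5 ± 1.19 FPKM (-0.51, limma adjusted p = 0.19). Gpr39, a zinc-sensing receptor, ran from 0.2 to 1.0 FPKM across the libraries and was below the filter.

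With 1 predicted gene among the closest rows passed over, the named genes whose pattern over the 7 libraries was most like that of Mt3 were H1fx, Lrrc47, Gfod2, Cabp1 and Zfp777. Likeness was the root mean square difference between log2(FPKM + 1) values centred on each gene's own mean, which was 0.31, 0.32, 0.33, 0.33 and 0.33 for these 5 and had a median of 0.87 over the 10088 other tested rows. Mt1 and Mt2 differed from Mt3 by 1.14 and 1.09, and S100a10 by 0.48. H1fx, a linker histone, measured 2.8, 3.0 and 1.9 FPKM across the WT libraries and 0.5, 0.7, 0.6 and 0.7 FPKM across the KO libraries. Cabp1, a neuronal calcium-binding protein, was the most abundant of the 5, with 30.7, 29.2 and 25.5 FPKM across the WT libraries and 9.0, 14.0, 12.1 and 14.7 FPKM across the KO libraries. As the 5 were picked for this likeness, their levels carry no test.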

How the data were processed

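Ribosome-bound RNA was sequenced in 7 libraries. Per the labels' protocols, 1 ng of RNA per pool was amplified with the Ovation kit before TruSeq libraries were made. Tools listed in the submitters' processing notes, with no roles, were Cufflinks 2.1.1, TopHat2 2.0.8, TopHat and DESeq 1.10.1, with the build mm10. The authors deposited FPKM values per library, rounded to 1 decimal, so that a value under 0.05 reads 0.0. They also deposited a table of 113 genes with group mean FPKM, fold (ratio), log2 fold and p-values, which was searched only for the members and the listed genes. Aligner settings, annotation, strand and multiply mapped reads are not given in the sources used here.

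Groups came from the sample titles, and a replicate was a pool of mice, so p-values measure the spread between pools. Rows averaging 1 FPKM or more were compared, KO against WT, with limma 3.58.1 in R 4.3.3 on log2(FPKM + 1) (eBayes with trend, two-sided, Benjamini-Hochberg adjustment over all tested rows, threshold 0.05). Changes of low genes are understated on this scale. FPKM are no counts, so no counting interval or detection floor is given. The fit was tested on simulated data.

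The members and all gene lists were chosen with earlier results of these data known. Named beside the members were, from each list, every called gene and the gene with the smallest unadjusted p (2 of them, and the most abundant gene, for the zinc exporters and importers), and the 5 rows most like Mt3 after skipping 1 unnamed predicted gene. Ndrg1, Slc30a7, the genes at 0 and the cell type markers named fall outside this rule and were named after their values were seen. Symbols were matched to GENCODE M21 (mm10), with older symbols through RefSeq, for 98.4% of the rows. Promoter windows came from RefSeq (GRCm38.p6), which held 9 of the 10 members. Tables were read with pandas 2.3.3 in Python 3.11.15 and plotted with matplotlib 3.10.9. Alternatives covered the pseudocount, the filter, normalization, trend, robust variances, array weights, a replicate block, a Y-linked term, GC and length trends, and leaving out each library.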

Additional observations from a re-analysis of the deposited data

Results flagged for a closer look

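In the 4 KO libraries, 3 of the 23 sets of values screened had 1 library far from the others, by a gap to the next library above Dixon's 95% critical value for 4 samples. Among independent sets with a normal spread, chance alone marks about 1 in 20. The sets screened here share values, such as Mt1, Mt2 and their ratio, so no excess over chance is read from the count. Csrp1 stood at 13 FPKM in KO1 and at 5.7 to 6.7 in the other KO libraries. Ap3s1 stood at 76.5 FPKM in KO4 and at 102.8 to 106.1 in the others. The ratio of Mt1 to Mt2 was 2.34 in KO2 and 3.36 to 3.56 in the others. Mt1 and Mt2 themselves, although highest in KO1, stayed under that limit.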

How the results depend on the processing

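Mt3 kept its direction under all 19 alternatives, with log2 fold changes from -1.83 to -1.03. Since its groups do not overlap, leaving out a library or changing the pseudocount could not reverse that direction. Changes to the filter, trend and robust variances left the estimate at -1.59. The kept direction is therefore no test of Mt3. The value closest to 0, -1.03, came with a pseudocount of 5 FPKM, which compresses low values by construction. With each library left out it ran from -1.73 to -1.45. Mt1, Mt2, Mtf1 and Slc39a6 stayed positive and Slc30a9 negative under every alternative run, while Slc30a1 (-0.12 to 0.07) and Slc39a10 (-0.01 to 0.16) changed sign around 0. The number of rows called was 176, and 83 without a filter, 100 without trend, 1689 with array weights and 18 with the replicate block. With 1 library left out it ran from 28 to 331, lowest when WT2 was dropped and highest when KO1 was, and it was 44 and 71 on dropping WT1 and WT3, and 54, 97 and 113 on dropping KO2, KO3 and KO4. Of the 58 tested genes in the lists outside the members, cell type markers not counted, 1 was called, Ap3s1 of the AP-3 adaptor. The share called over all rows was 1.74%, which is near that of the lists. These lists also hold the antioxidant and glucocorticoid genes. The count was 0 without a filter, with quantile normalization, without trend and with the replicate block. It was also 0 with a Y-linked covariate and with GC and length trends removed. It was 9 with array weights and 0 to 2 with a library left out. The cause of these shifts in count was not tested. The labels do not state whether libraries with the same replicate number were handled together. The correlations of same-numbered deviations from the group means, across genes, were -0.22, 0.0202 and -0.259. Differently numbered libraries gave -0.117 to 0.309. As the deviations are centred within each small group, these values cannot decide on a pairing. The block (WT1 to WT3 with KO1 to KO3) gave -1.60 for Mt3. Each member had 1 row, so summing rows of a symbol changes no member. The unknown depth and the rounding to 0.1 FPKM limit Slc30a3 and other genes near 0.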

Other observations

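Around Mt3, 7 tested genes other than the members lie within 250000 bases, a set chosen after the values were seen and given no test. Their log2 fold changes, KO minus WT, ran from -0.15 for the nucleoporin Nup93 to 0.29 for Herpud1, a gene of the endoplasmic reticulum stress response, with a median of -0.05. Gnao1, the neighbouring gene of a G protein subunit abundant in neurons, had a value of -0.07. None of the 7 was called by limma, beside 1.74% of all rows, and 3 were positive and 4 negative. Nothing is read from a count over so few genes.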
